A study of Mus musculus with 8 samples.

Results

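The expression of 10 genes of the canonical Wnt pathway was examined in normal mouse colon after activation of Hedgehog (Hh) signalling in the stroma. The list was kept apart from crypt-base targets such as Lgr5, although Tnfrsf19, Sox9 and Cd44 in it are also genes of crypt cells. The 10 genes are the transcription factors Lef1, Tcf7, Tcf7l2, Sox9 and Sp5, the feedback inhibitors Nkd1, Notum and Apcdd1, and the cell surface receptors Tnfrsf19 and Cd44. They were given as a list of symbols and not picked by a threshold on their values, and each was represented by its brightest transcript cluster, a set of probes on the array that stands for 1 transcript unit. Of these 10 genes 9 were measured, among 22180 genes with a named cluster. No cluster carried the symbol Tcf7 in the probe table used, so Tcf7 was not analysed here. Tested gene by gene, 0 of the 9 passed, 3 lay higher and 6 lower in the mice with activated Hh signalling, and in each of the 9 the values of both groups overlapped.

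Whole colon was profiled on Affymetrix Mouse Gene ST 2.0 arrays, 1 array per mouse, in 8 mice on a C57BL/6 background. The 4 Ptch1ΔCol1 mice, labelled Hh activation, carried Col1a2CreER and Ptch1fl/fl. In this model a transgenic collagen promoter drives an inducible Cre recombinase, and tamoxifen removes exon 2 of Ptch1, the receptor that restrains Hh signalling, from Col1a2-expressing stromal cells. Replicates 1 and 2 of this group also carried R26-LSL-tdTomato, a Cre-dependent fluorescent reporter, and replicates 3 and 4 did not. The 4 controls, labelled wt_ctrl, carried no Cre. Control replicates 1 and 2 were Ptch1fl/+ and control replicates 3 and 4 were R26-tdTomato, so no control combined the Cre driver with tamoxifen. Replicate 3 of the Ptch1ΔCol1 group and replicate 2 of the controls were male, and the other mice were female. The labels describe 1 intraperitoneal tamoxifen dose (5 mg per 25 g of body weight) and 1 treatment protocol for all mice, with the colon taken 7 days later as a 1 cm piece that began 1.5 cm from the anus. The Col1a2 transgene is active in many organs and, with this route, not only in the mucosa, so the model is not restricted to the stroma beneath the epithelium.

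Values are robust multi-array average (RMA) levels on a log2 scale, in which a difference of 1 is a 2-fold change. Fold changes are Ptch1ΔCol1 over control and were tested with limma, with Benjamini-Hochberg adjustment over all 22180 genes at a threshold of 0.05. The arrays had similar medians of 4.69 to 4.80. Each array correlated on average with the other 7 at 0.985 to 0.987, except for Ptch1ΔCol1 replicate 3, which stood apart at 0.979. The labels were checked with Hh targets. Gli1, a Hh-responsive transcription factor, lay at 6.36 to 6.42 in the Ptch1ΔCol1 mice and at 4.81 to 5.20 in controls, a log2 fold change of 1.36 ± 0.10 (SE, limma adjusted p = 0.0020, n = 4 per group). Hhip, a Hh-binding antagonist, rose by 1.84 ± 0.22 (limma adjusted p = 0.043). That call was lost in 13 of 21 alternative analyses, in which the fold change stayed between 1.61 and 2.06, and the fold change of Ptch1 itself was 0.82 ± 0.13 (limma adjusted p = 0.14) without overlap of the groups. The 8 markers of epithelium, Epcam and keratins among them, had a mean level of 11.5 to 11.6 in all 8 mice.

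Canonical Wnt signalling stabilises β-catenin, which enters the nucleus and binds the high mobility group (HMG) box factors of the TCF/LEF family, Lef1, Tcf7 and Tcf7l2, at target genes. In the colon it is strongest at the base of the crypts, where it maintains stem and progenitor cells. Many of its targets are themselves inhibitors of the pathway, so that their expression is widely read as a record of the signal. In whole tissue, fewer cells of a type and less RNA per cell cannot be told apart, and several of these genes are made by more than one cell type.

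Across all genes 6 passed the test, 0.0271% of the genes tested, and 2044 genes (9.22%) had an unadjusted p under 0.05. Of the 9 Wnt response genes 0 passed and 0 had an unadjusted p under 0.05. The lowest limma p was 0.085, for Lef1, and the adjusted p ran from 0.59 to 0.99. Exact permutation of the 8 mice, two-sided over 70 relabellings with a smallest possible p of 0.029, gave p between 0.11 and 0.94 for the 9 genes. The groups did not overlap in 5.37% of all genes, and in 0 of these 9. The log2 fold change was below 0 in 6 of 9, against 52.9% of all genes. Their median log2 fold change was -0.04, beside -0.01 over all genes. The standard errors of the 9 fold changes lay between 0.11 and 0.20. The 95% confidence intervals reached down to a ratio of 0.647 for Sox9 and up to 1.59 for Apcdd1, so changes inside these bounds were not resolved with 4 mice per group.

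**Figure D1:**
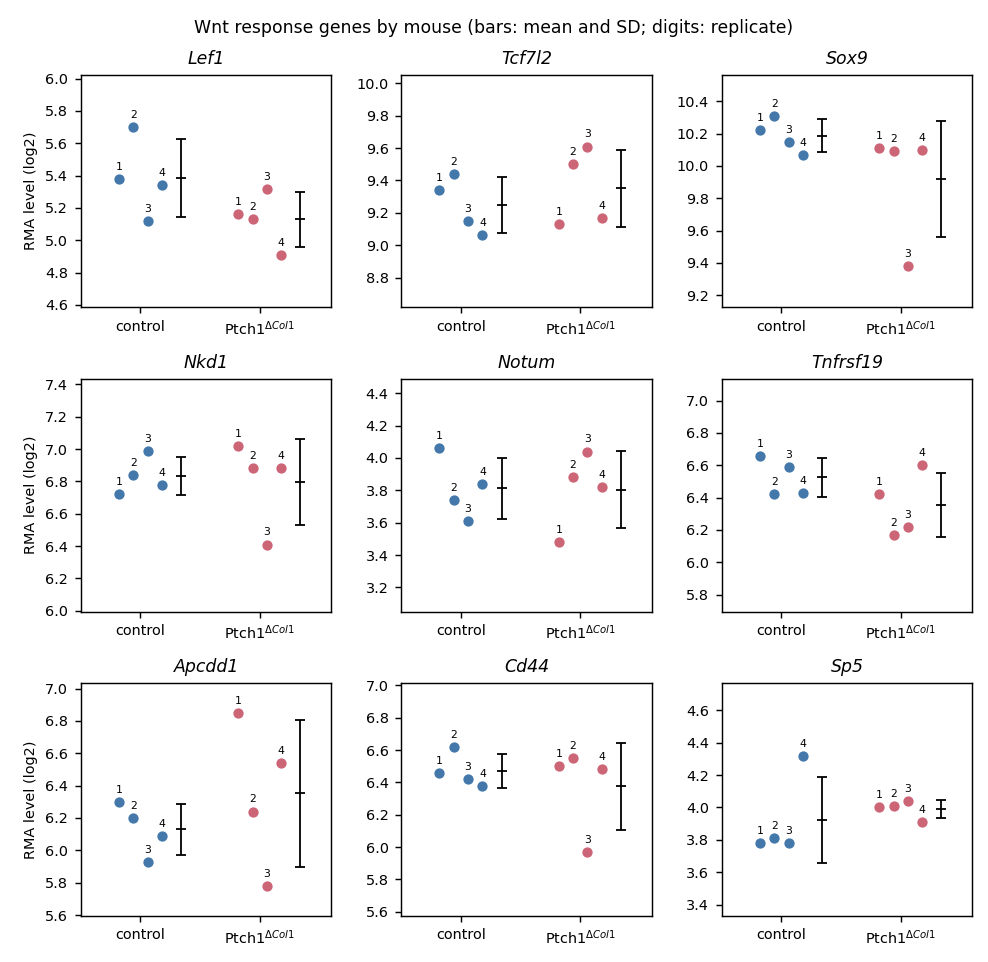
RMA level (log2) of the 9 measured Wnt response genes in each mouse, with controls in blue and Ptch1ΔCol1 mice in red, digits giving the replicate and black bars the mean and SD of 4 mice. Each panel spans the same number of log2 units; the groups overlap in every panel, and Ptch1ΔCol1 replicate 3 is the lowest of the 8 mice for Sox9, Nkd1, Apcdd1 and Cd44.

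Among the TCF/LEF factors, Lef1 had the lowest p. Lef1 turns on β-catenin targets and is also made by lymphocytes. Its level was 5.16, 5.13, 5.32 and 4.91 in Ptch1ΔCol1 replicates 1 to 4, and 5.38, 5.70, 5.12 and 5.34 in control replicates 1 to 4. The highest Ptch1ΔCol1 mouse, replicate 3, lay above the lowest control, replicate 3, and below the other controls. The log2 fold change was -0.26 ± 0.13 (SE; 95% confidence interval -0.55 to 0.04; limma adjusted p = 0.59). It was -0.41 against the Ptch1fl/+ controls and -0.10 against the R26-tdTomato controls, and the difference between these values was not tested. The only male control was among the Ptch1fl/+ mice. 

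Lef1 was lower beside markers of lymphocytes. The mean of 12 T cell markers lay at 4.48 to 5.06 in Ptch1ΔCol1 mice and at 4.79 to 5.45 in controls, with 12 of 12 genes lower and a median log2 fold change of -0.28. Without Ptch1ΔCol1 replicate 3, 10 of 12 were lower and the median was -0.09. The mean of 11 B cell and follicle markers lay at 4.22 to 5.60 and 5.05 to 6.49, with 11 of 11 lower and a median of -0.90, or 11 of 11 and -0.61 without that mouse. None of these 23 genes passed the test. In limma 1 of the 12 T cell and 7 of the 11 B cell genes had an unadjusted p under 0.05, against 9.22% of all genes. The smallest adjusted p was 0.45 for the T cell marker Bcl11b and 0.40 for the B cell marker Fcrl1, both by limma. Control replicate 2 was the highest control and control replicate 3 the lowest for Lef1, for the T cell mean and for the B cell mean. Among Ptch1ΔCol1 mice the order differed: replicate 3 had the highest Lef1 and the lowest mean of both lymphocyte lists. Without replicate 3 the log2 fold change of Lef1 was -0.32, against -0.26 with all mice, whereas both list medians became less negative. The part of lymphocytes in the Lef1 values was not tested.

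Tcf7l2, the main TCF factor of the intestinal epithelium, did not follow Lef1. It measured 9.13, 9.50, 9.61 and 9.17 in Ptch1ΔCol1 replicates 1 to 4 and 9.34, 9.44, 9.15 and 9.06 in control replicates 1 to 4. Replicates 2 and 3 of the Ptch1ΔCol1 mice were above all controls, and replicates 1 and 4 were among them. In limma the log2 fold change was 0.11 ± 0.13 (SE; adjusted p = 0.84; 95% confidence interval -0.19 to 0.40). Against the Ptch1fl/+ controls alone it was -0.04, against the R26-tdTomato controls alone 0.25.

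Sox9, an HMG box factor of crypt progenitors that is itself induced by Wnt, held nearly 1 level in all but 1 mouse. It measured 10.11, 10.09 and 10.10 in Ptch1ΔCol1 replicates 1, 2 and 4 and 9.38 in replicate 3. The controls lay at 10.22, 10.31, 10.15 and 10.07. The log2 fold change was -0.27 ± 0.16 (SE; limma adjusted p = 0.64), and without replicate 3 it was -0.09 ± 0.09 (SE; limma adjusted p = 0.74), so 1 mouse set most of the difference. Of 8 Sox genes listed as relatives, 2 lay higher and 6 lower, with a median of -0.04, and 0 passed the test. Without replicate 3 the numbers were 4 and 4.

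Sp5, a zinc finger transcription factor induced by β-catenin in many tissues, lay between 3.78 and 4.04 in all mice but control replicate 4. All its values were low, below the median of every array. It measured 4.00, 4.01, 4.04 and 3.91 in Ptch1ΔCol1 replicates 1 to 4, and 3.78, 3.81, 3.78 and 4.32 in control replicates 1 to 4. The Ptch1ΔCol1 mice lay above 3 of the 4 controls and below control replicate 4. Between the groups the log2 fold change was 0.07 ± 0.13 (SE; limma adjusted p = 0.90). It was 0.20 against the Ptch1fl/+ controls alone, in which both mice lay below all 4 Ptch1ΔCol1 mice, and -0.06 against the R26-tdTomato controls alone.

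The Sp5 promoter and 1 promoter of Tnfrsf19 are shown because each carries the letters that TCF/LEF factors bind best, ATCAAAG, on either strand. RefSeq windows of 300 bases (250 before and 50 after a transcript's start, build GRCm38.p6) were found for 7 of the 10 genes, 13 windows in all. The motif was present in 2 of the 13 windows, and in 3.73% of all 32851 windows of the same length. The windows are written from 5′ to 3′ on the strand of the gene, with the motif, or its reverse complement CTTTGAT, in capitals.
Sp5, chr2:70474673-70474972, plus strand: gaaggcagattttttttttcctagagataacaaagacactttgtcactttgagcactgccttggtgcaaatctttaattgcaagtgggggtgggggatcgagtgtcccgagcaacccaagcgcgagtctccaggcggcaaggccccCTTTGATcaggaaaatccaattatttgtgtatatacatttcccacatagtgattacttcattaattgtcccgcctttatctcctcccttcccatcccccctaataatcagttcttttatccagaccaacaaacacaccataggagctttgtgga
Tnfrsf19, chr14:61037938-61038237, minus strand: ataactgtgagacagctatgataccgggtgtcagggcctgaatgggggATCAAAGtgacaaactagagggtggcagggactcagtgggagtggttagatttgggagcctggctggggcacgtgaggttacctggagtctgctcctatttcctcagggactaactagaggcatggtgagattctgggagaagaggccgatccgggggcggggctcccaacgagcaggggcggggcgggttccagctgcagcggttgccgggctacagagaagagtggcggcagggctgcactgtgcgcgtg
In Sp5 the motif lies on the reverse strand at positions -104 to -98 from the start, and in Tnfrsf19 on the forward strand at -202 to -196. The windows of Lef1, Tcf7, Tcf7l2, Nkd1 and Cd44 hold no such match, and neither Sp5 nor Tnfrsf19 passed the test. A match is a description of these letters and says nothing of binding in these mice.

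**Figure D2:**
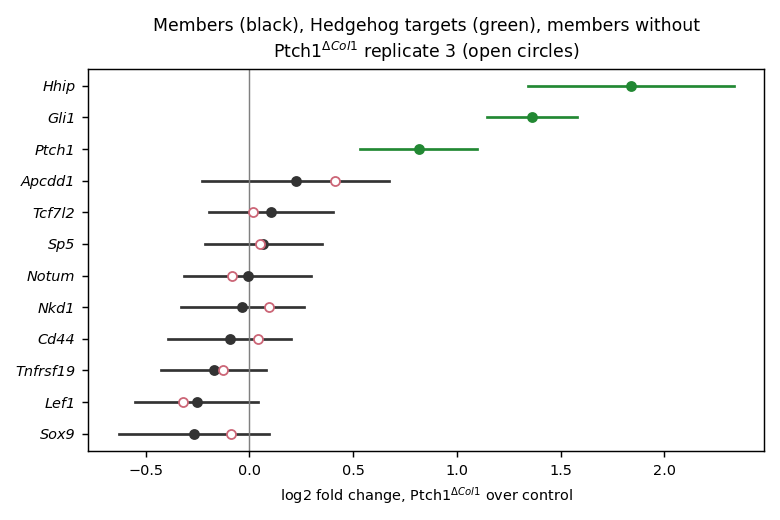
Log2 fold change of Ptch1ΔCol1 over control on the horizontal axis, with 95% confidence intervals from limma, for the 9 Wnt response genes in black and 3 Hh targets in green; open circles give the members without Ptch1ΔCol1 replicate 3. The intervals of the 9 members all cross 0, whereas those of Gli1, Hhip and Ptch1 lie above 0.

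The feedback inhibitors moved neither together nor past the test. Nkd1 binds Dishevelled and dampens the signal inside the cell that makes it. It measured 7.02, 6.88, 6.41 and 6.88 in Ptch1ΔCol1 replicates 1 to 4, and 6.72, 6.84, 6.99 and 6.78 in control replicates 1 to 4. Replicate 3 was the lowest of the 8 mice and replicate 1 the highest. For Nkd1 the log2 fold change was -0.04 ± 0.13 (SE; limma adjusted p = 0.96), and 0.09 ± 0.09 without replicate 3.

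Notum, a secreted enzyme that removes the lipid from Wnt ligands, gave low values in both groups, below the median of every array. Its brighter cluster measured 3.48, 3.88, 4.04 and 3.82 in Ptch1ΔCol1 replicates 1 to 4, and 4.06, 3.74, 3.61 and 3.84 in control replicates 1 to 4. The values of the groups were interleaved, with a log2 fold change of -0.01 ± 0.14 (SE; limma adjusted p = 0.99). A second cluster that maps to Notum lay at 3.07 to 3.93 and 3.27 to 3.69, with a fold change of 0.08 ± 0.18, and the groups overlapped there too.

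Apcdd1, a membrane glycoprotein that binds Wnt ligands and their co-receptor, had the widest spread of the 9 genes among Ptch1ΔCol1 mice. It measured 6.85, 6.24, 5.78 and 6.54 in replicates 1 to 4, beside 6.30, 6.20, 5.93 and 6.09 in control replicates 1 to 4. Replicates 1 and 4 lay above all controls, replicate 2 within their range and replicate 3 below them. The log2 fold change was 0.22 ± 0.20 (SE; limma adjusted p = 0.76). Without replicate 3 it was 0.41 ± 0.15 (SE; limma adjusted p = 0.37), the largest value of a member in that fit, and replicate 2 still overlapped the controls. Replicates 1 and 4 also had the highest mean of 9 fibroblast markers, 9.90 and 9.83, against 9.26 and 9.18 in replicates 2 and 3 and 9.34 to 9.66 in controls. The mean of 6 Hh targets was 8.1 and 8.3 in replicates 1 and 4, against 7.7 and 7.7 in replicates 2 and 3. The endothelial marker mean was likewise 8.11 and 8.09 against 7.73 and 7.06. The part of fibroblasts, endothelium or Hh target level in the Apcdd1 values was not tested.

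Of the receptors, Tnfrsf19 (also called Troy), a member of the tumour necrosis factor receptor family that marks crypt stem cells, measured 6.42, 6.17, 6.22 and 6.60 in Ptch1ΔCol1 replicates 1 to 4. Control replicates 1 to 4 had 6.66, 6.42, 6.59 and 6.43. Replicates 2 and 3 of the Ptch1ΔCol1 mice lay below all controls, replicate 1 lay level with the lowest and replicate 4 above 3 of them. For Tnfrsf19 the log2 fold change was -0.17 ± 0.11 (SE; 95% confidence interval -0.42 to 0.08; limma adjusted p = 0.66).

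Cd44, the hyaluronan receptor and a Wnt target of crypt epithelium that leukocytes also make, again set 1 mouse apart. It measured 6.50, 6.55 and 6.48 in Ptch1ΔCol1 replicates 1, 2 and 4 and 5.97 in replicate 3, beside 6.46, 6.62, 6.42 and 6.38 in control replicates 1 to 4. The log2 fold change was -0.10 ± 0.13 (SE; limma adjusted p = 0.86), and it turned to 0.04 ± 0.09 without replicate 3. Between the 3 females of each group it was 0.09.

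Ptch1ΔCol1 replicate 3 was the lowest of the 8 mice in 4 of the 9 genes, Sox9, Nkd1, Apcdd1 and Cd44, and the highest in 1, Tcf7l2. Over all genes it was the lowest in 17.7% and the highest in 23.6%. Its distance from the mean of the other 3 Ptch1ΔCol1 mice was -0.72 for Sox9, -0.52 for Nkd1, -0.76 for Apcdd1 and -0.54 for Cd44. The same mouse had the lowest mean of the endothelial markers (7 genes), 7.06 against 7.59 to 8.11 in the other 7 mice. It was also lowest for the macrophage markers (8 genes), 7.12 against 7.50 to 8.20, and for the lymphocyte and fibroblast lists. Among epithelial lists it had the highest mean of general markers, 11.6, and the lowest of goblet (11.4) and of endocrine and tuft cell markers (6.71), and its smooth muscle mean, 11.6, was the highest of the 8. The part of these cell types in its Wnt response values was not tested, and as it is the only male of its group, sex, mouse and array cannot be told apart in it. The male pair alone, Ptch1ΔCol1 replicate 3 against control replicate 2, differed by -0.93 for Sox9, -0.65 for Cd44, -0.43 for Nkd1 and -0.42 for Apcdd1, as values of 1 mouse each.

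**Figure D3:**
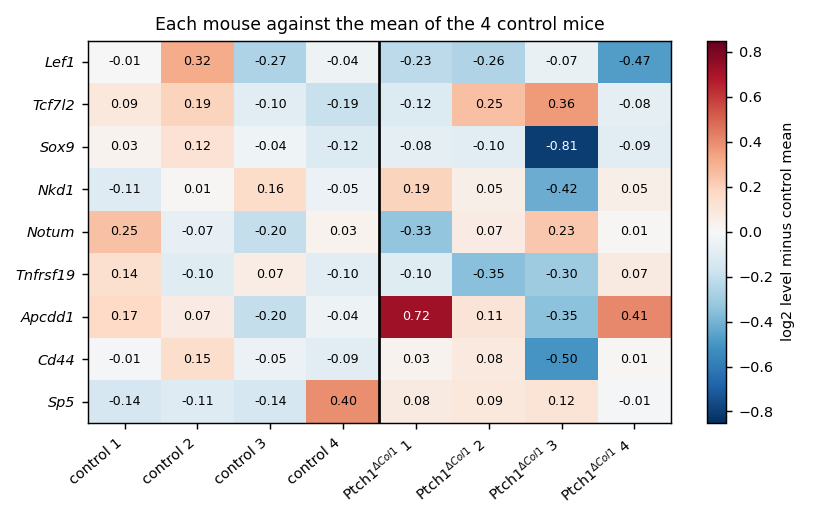
Log2 level of each Wnt response gene (rows) in each mouse (columns) minus the mean of the 4 controls, from blue (lower) to red (higher), with the value printed in each cell. The column of Ptch1ΔCol1 replicate 3 holds the lowest values of Sox9, Nkd1, Apcdd1 and Cd44, and the highest cell of the map is Apcdd1 in Ptch1ΔCol1 replicate 1.

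The spread among mice was larger in the Ptch1ΔCol1 group for 7 of the 9 genes, against 68.2% of all genes. Without replicate 3 it was larger in 4 of 9, against 57.4% of all genes. With this mouse left out the groups still overlapped in all 9, whereas 10.4% of all genes were then free of overlap. The median log2 fold change of the 9 became 0.02, beside -0.02 over all genes. Of the 9 genes 7 had a higher mean in the Ptch1fl/+ than in the R26-tdTomato controls, against 49.2% of all genes. With 2 mice of each kind this was not tested. The only male control was a Ptch1fl/+ mouse, so sex and control genotype cannot be fully told apart here. The difference was 0.31 for Lef1, 0.28 for Tcf7l2 and 0.24 for Apcdd1, in each case larger than the difference between the groups, and it ran the other way for Sp5 (-0.26) and Nkd1 (-0.10).

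The lists of other Wnt genes were described in the same way, by counts and medians without a test of the list. In none of the 7 lists that follow did a gene pass the test. Of 13 measured targets of the crypt-base stem cell programme 0 lay higher and 13 lower, with a median of -0.18 and 3 genes at an unadjusted p under 0.05. Over all genes 52.9% lay lower and 9.22% had such a p. The list was chosen with earlier results of these data known. The study had already reported Lgr5 and Cdca7, both in the list, as reduced on these arrays, so the count is not independent of those results. Replicate 3 had the lowest mean of this list, 7.90 against 8.15 to 8.28 in the other Ptch1ΔCol1 mice and 8.33 to 8.40 in controls, and without it 12 of 13 were lower with a median of -0.11. Beside these, 11 of 11 proliferation genes lay higher with a median of 0.27 and mean levels of 8.00 to 8.31 against 7.78 to 7.93. Likewise 8 of 8 smooth muscle markers lay higher with a median of 0.20 and mean levels of 11.45 to 11.62 against 11.17 to 11.38. In neither list did a gene pass the test. In limma 5 of the 11 proliferation and 4 of the 8 smooth muscle genes had an unadjusted p under 0.05, against 9.22% of all genes. The groups did not overlap in 3 of the 11 and 4 of the 8, against 5.37% of all genes. The part of these cells in the crypt-base values was not tested. Prox1, a homeobox factor, had the lowest p, at 5.34, 5.41, 4.92 and 5.18 in Ptch1ΔCol1 replicates 1 to 4 and 5.53, 5.96, 5.67 and 5.61 in control replicates 1 to 4 (log2 fold change -0.48 ± 0.13, limma adjusted p = 0.40). Rgmb, a co-receptor of the BMP pathway, followed at 9.53 to 9.69 against 9.80 to 9.97. Axin2, a negative feedback regulator and the most general Wnt target, was added after its values were seen. It measured 7.65, 7.66, 7.28 and 7.69 in Ptch1ΔCol1 mice and 7.75, 7.77, 7.63 and 7.51 in controls. Its log2 fold change was -0.10 ± 0.11 (limma adjusted p = 0.82), and 0.00 without replicate 3, so replicate 3 was the low mouse here too. Whether the stem cell targets differ from the 9 response genes was not tested.

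**Figure D4:**
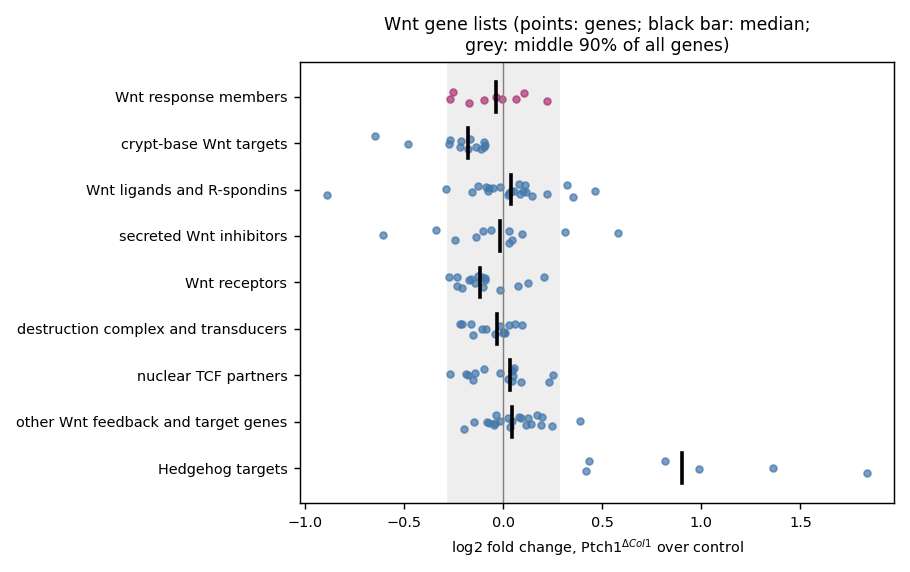
Log2 fold change of Ptch1ΔCol1 over control (horizontal axis) for each gene of the Wnt lists and of the Hh targets, as points, with the list median as a black bar and the middle 90% of all genes, -0.28 to 0.28, in grey. The 9 Wnt response genes lie within the grey band on both sides of 0, and all 13 crypt-base targets lie below 0 when replicate 3 is included.

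Upstream of the response genes, 14 of 23 ligands and R-spondins lay higher and 9 lower, with a median of 0.04. Wnt9a had the lowest p, with 5.34, 4.98, 5.36 and 4.82 in Ptch1ΔCol1 replicates 1 to 4 and 4.41, 4.78, 4.69 and 4.76 in control replicates 1 to 4. Wnt2b, a ligand of stromal cells, followed with 7.54, 6.98, 5.64 and 7.11 against 7.82, 7.61, 7.67 and 7.72. Both sets of values were free of overlap, as were those of 5.37% of all genes, and both genes were picked by lowest p. No other gene of the 23 was free of overlap. The log2 fold changes of Wnt9a and Wnt2b were 0.47 ± 0.14 and -0.89 ± 0.33 (limma adjusted p = 0.43 and 0.49). For Wnt2b replicate 3 was the lowest mouse, and without it the value was -0.50.

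The secreted inhibitors lay evenly, 6 of 12 higher and 6 lower, with a median of -0.02 (-0.05 without replicate 3). The 2 with an unadjusted p under 0.05 were Wif1, which binds Wnt ligands (0.31 ± 0.10, limma adjusted p = 0.44), and Sfrp5, a soluble Frizzled-like protein (0.58 ± 0.21, limma adjusted p = 0.49). These 2 of the 12 were also the only ones free of overlap, against 5.37% of all genes. Sfrp5 was highest in replicate 3, at 6.52 against 5.43 to 5.89 in the other Ptch1ΔCol1 mice and 5.09 to 5.36 in controls, and without that mouse its fold change was 0.35. Of 16 receptors 3 lay higher and 13 lower, with a median of -0.12 (4, 12 and -0.07 without replicate 3), and Ror1, a receptor tyrosine kinase, had the lowest p (-0.21 ± 0.09, limma adjusted p = 0.52).

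Of 14 genes of the destruction complex and the cytoplasmic transducers 5 lay higher and 9 lower, with a median of -0.03. In this list 1 gene, the one of lowest p, was free of overlap, against 5.37% of all genes. Dvl3, a Dishevelled protein, lay at 8.76 to 9.03 in Ptch1ΔCol1 mice and 9.10 to 9.22 in controls (-0.22 ± 0.09, limma adjusted p = 0.52). Of 16 genes listed as nuclear partners of the TCF factors 9 lay higher and 7 lower, with a median of 0.03. The groups did not overlap in 1 higher and 3 lower genes of the 16, against 5.37% of all genes. Those are the genes named here, picked by lowest p. Ctnnbip1, which blocks the contact of β-catenin with TCF, lay at 8.09 to 8.43 against 8.02 to 8.07 (0.23 ± 0.09, limma adjusted p = 0.51). That is its brightest cluster, and as the mean of its clusters the log2 fold change was 0.078 (limma adjusted p = 0.85). Ctbp1, a co-repressor, lay at 9.65 to 9.91 against 9.92 to 9.98 (-0.18 ± 0.08, limma adjusted p = 0.55). Tle3, a Groucho co-repressor, lay at 8.33 to 8.90 against 8.93 to 8.97 (-0.27 ± 0.12, limma adjusted p = 0.55), with replicate 3 again the lowest. The other gene of that list with an unadjusted p under 0.05, Cbx1, is a heterochromatin protein and not a Wnt component in the strict sense (-0.19 ± 0.08). Of 21 other feedback and target genes 13 lay higher and 8 lower, with a median of 0.05 (0.02 without replicate 3). Jun, a component of the AP-1 factor, had the lowest p (0.25 ± 0.11, limma adjusted p = 0.54), followed by Dact1, a Dishevelled antagonist, at 7.26, 6.71, 6.44 and 7.23 against 6.63, 6.68, 6.45 and 6.32.

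**Figure D5:**
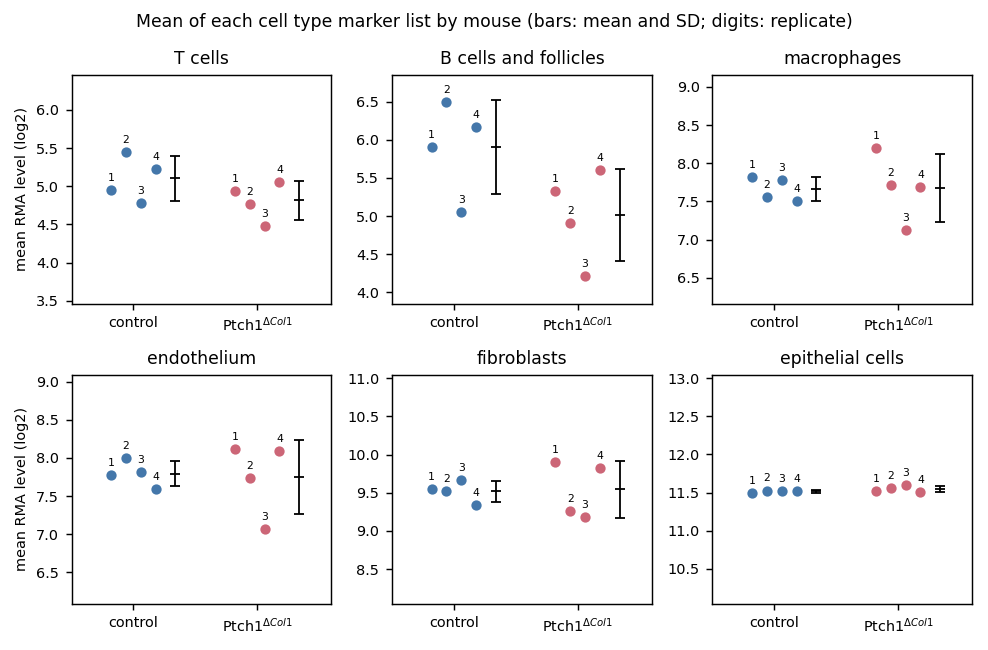
Mean RMA level (log2) of 6 cell type marker lists in each mouse, controls in blue and Ptch1ΔCol1 mice in red, with the replicate as a digit and the mean and SD of 4 mice as black bars; all panels span the same number of log2 units. Ptch1ΔCol1 replicate 3 is the lowest mouse in the T cell, B cell, macrophage, endothelial and fibroblast panels, and smooth muscle, goblet and endocrine lists are not drawn; the general epithelial panel holds all 8 mice at 11.5 to 11.6.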

How the data were processed

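RNA of whole colon from 4 Ptch1ΔCol1 mice and 4 controls was hybridised to 1-colour Affymetrix arrays. The deposited log2 values, given to 2 decimals, had been background-corrected, normalized and summarised by the authors with robust multi-array average (RMA), and were analysed without further scaling. For the software used in that step, the version is not given in the sources used here. Of 41345 transcript clusters 23521 carried a single symbol in the probe table. Gene IDs linked 23328 of them to RefSeq genes (GRCm38.p6). Another 1820 clusters with several symbols and 16004 without one were not used. Where a gene had more than 1 cluster (1082 genes) the brightest was kept, and 22180 genes remained. Groups were tested with limma (version 3.58.1, R 4.3.3) at a Benjamini-Hochberg adjusted threshold of 0.05, and single genes by a two-sided exact permutation test. The limma step was tested on simulated data. Each array is 1 mouse, and the number of mice limits the precision.

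The 10 genes were given by symbol, and they and the lists were chosen with earlier results of these data known. Named were all 10 Wnt response genes with every cluster, 3 Hh targets, and of each other Wnt list up to 4 genes by lowest p. Marker lists were described by their mean level, with the gene of lowest p where used. The alternatives were other cluster rules, filters, normalizations, variance models, covariates, subsets of controls or sexes and the omission of each mouse.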

Additional observations from a re-analysis of the deposited data

Results flagged for a closer look

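The levels of 3 Wnt response genes stood far from the other mice of their group, by a gap that took up most of the range of 4 mice. Sox9 was 9.38 in Ptch1ΔCol1 replicate 3 and 10.09 to 10.11 in the other 3. Cd44 was 5.97 in the same mouse and 6.48 to 6.55 in the others. Sp5 was 4.32 in control replicate 4 and 3.78 to 3.81 in the other controls, all low values below the median of every array. Among the genes set beside them, Axin2 was 7.28 in Ptch1ΔCol1 replicate 3 and 7.65 to 7.69 in the others, and Gli1 was 6.42 in Ptch1ΔCol1 replicate 1 and 6.36 to 6.37 in the others. The mean of the epithelial markers was 11.49 in control replicate 1 and 11.52 to 11.53 in the other controls. In all, 68 groups of 4 were examined, and chance alone sets about 5% of groups apart in this way. The groups share the same 8 mice and are not independent, so whether more stood apart than by chance was not tested.

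Cd44 lay the opposite way in the females and in the male pair, and so did Apcdd1, Nkd1 and Notum. The 3 female Ptch1ΔCol1 mice lay above the 3 female controls, and the male Ptch1ΔCol1 mouse lay below the male control by a difference of -0.65. In females and in the male pair the values were 0.44 and -0.42 for Apcdd1, 0.10 and -0.43 for Nkd1, and -0.11 and 0.30 for Notum. These differences were not tested. Ptch1ΔCol1 replicate 3 is the only male of its group, so sex, mouse and array cannot be told apart in it. With the reporter allele as an interaction term, the smallest adjusted p of a Wnt response gene in limma was 0.90.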

How the results depend on the processing

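None of the 9 Wnt response genes passed the test under any of 21 alternatives or under the exact permutation test, and their adjusted p ran from 0.37 to 1.00 in limma. Lef1, Sox9, Tnfrsf19 and Apcdd1 kept their direction throughout. The other 5 turned in 16 cases. Nkd1 was 0.019 with array weights, 0.018 against the Ptch1fl/+ controls and 0.097 in females. Notum was 0.035 as the mean of its clusters, 0.011 after quantile normalization, 0.025 after median centring and 0.080 against the R26-tdTomato controls. Cd44 was 0.090 in females, Tcf7l2 -0.038 against the Ptch1fl/+ controls and Sp5 -0.060 against the R26-tdTomato controls. Axin2 was 0.037 in females and -0.026 as the mean of its clusters. With the clusters of a gene averaged, Ctnnbip1 was 0.078 and Dact1 0.30, and both kept their direction. As each mouse was left out, Nkd1 ran from -0.11 to 0.094, Notum from -0.086 to 0.10, Cd44 from -0.15 to 0.040 and Axin2 from -0.15 to 0.0017, and Nkd1, Cd44 and Axin2 were highest without Ptch1ΔCol1 replicate 3. The median of the 9 ran from -0.11 without Ptch1ΔCol1 replicate 1 to 0.019 without replicate 3. The cause of these turns was not tested.

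Over all genes 4 rose and 2 fell. As each mouse was left out, 1 to 10 rose and 0 to 2 fell, with 10 and 2 without Ptch1ΔCol1 replicate 3. The numbers were 2 and 1 after quantile normalization, 1 and 0 with sex in the model, 2 and 0 with the reporter allele in the model, 1 and 0 against the Ptch1fl/+ controls and 0 and 0 against the R26-tdTomato controls. A trended and robust variance gave 9 that rose, the mean of clusters 1 that fell, and females alone 0 that fell. With the replicate block 2 rose and 1 fell. The labels state no pairing of mice by replicate number. Same-numbered arrays correlated at -0.03 to 0.03 in their deviations from the group means, and different-numbered ones at -0.07 to 0.05. These values show no sign of pairing by number but cannot exclude it. Hhip lost its call under 13 alternatives, at fold changes of 1.61 to 2.06 over all 21, and Gli1 under 1, the R26-tdTomato controls alone, where its fold change was 1.37, while Ptch1 gained one with a trended and robust variance. Notum and Sp5 lie below the 40th percentile of levels and had no value once dim genes were left out.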
